A study of Mus musculus with 9 samples.

Results

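The ADAM, ADAMTS and TIMP families were followed across 9 RNA sequencing libraries of mouse liver cells. Members were all listed genes whose symbol starts with Adam, Adamts or Adamtsl and a digit, plus Timp1, Timp2, Timp3 and Timp4. Of the 24453 genes listed, 61 had such a symbol, and the 14 of these with 0 reads in all libraries were left out. The remaining 47 genes were 20 ADAM, 18 ADAMTS, 5 ADAMTSL (ADAMTS-like) and 4 TIMP genes.

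The libraries fall into 3 groups of 3, all of the C57BL/6J strain and each made from the pooled cells of 3 to 5 mice. Hepatic stellate cells (HSCs) came from normal livers of wild-type mice. CCl4-fib were fibroblasts of Col1a2-GFP Tg mice, whose green fluorescent protein is driven by the collagen α2(I) promoter, after intraperitoneal CCl4 at 1 ml/kg given 2 times per week for 8 weeks. NASH-fib were fibroblasts of MC/COL mice, which carry the same reporter and lack the melanocortin 4 receptor (MC4R-KO). These were males put on a Western diet (WD) at 8 weeks of age for 20 weeks. Ages and sexes of the other donors are not given in the sources used here. Fibroblasts were sorted as CD45- GFP+ cells, so they are cells with an active collagen promoter whatever their origin, whereas HSCs were collected from a density gradient with no reporter and no CD45 gate. Isolation method and group therefore cannot be told apart in either comparison with HSCs, and genotype, diet and toxin cannot be told apart between the fibroblast groups.

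ADAMs are membrane-anchored metalloproteinases with a disintegrin domain, and several of them release growth factors, cytokines and receptors from the cell surface. ADAMTS proteases are secreted, carry thrombospondin motifs and cut matrix proteins such as proteoglycans and procollagens, while the ADAMTSL proteins share their ancillary domains but have no protease domain and bind to matrix, including fibrillin microfibrils. TIMPs are the tissue inhibitors of metalloproteinases, and Timp1 is a long-known product of activated stellate cells in fibrotic liver.

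The value of a gene is its number of exon reads scaled so that all libraries sum to the same total, and the libraries held between 3071070 and 5634273 reads on genes. A gene at 3 reads had a value between 2.38 and 4.37, which is taken as the floor and covers counting error only. Against a group with 0 reads, a fold is a lower bound computed at this floor, and against a group with 1 to 4 reads in all it is the ratio of scaled reads with an exact (Clopper-Pearson) 95% interval. Group differences were tested by limma on the log2(value + 1) scale, with Benjamini-Hochberg adjustment over 13651 genes. Calls required an adjusted p below 0.05 and a 2-fold or larger change, that is a log2 fold change of 1 or more up or down. Because the added 1 shrinks the fold change of weakly expressed genes, ratios of mean values are given beside it. Of the 47 members, 35 had enough reads to be tested. The p-values measure the spread between pooled libraries. NASH-fib replicate 1 stood apart: a chi-square statistic per gene, lower for more alike libraries, was 64.9 against HSC replicate 2, but 99.6 and 81.8 against the other NASH-fib libraries. This statistic also grows with depth, and HSC replicate 2 and NASH-fib replicate 1 held the fewest reads (3071070 and 3289758). Depth and likeness therefore cannot be told apart in it. Counts are therefore also given without these libraries.

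More members were higher in CCl4-fib than in HSCs than in any other comparison. Of the 35 tested, 16 rose and 4 fell in CCl4-fib, where 16.2% of all tested genes rose and 11.7% fell. In NASH-fib against HSCs 10 rose and 3 fell, beside 8.23% and 4.30% of all tested genes. The 16 include Adam5, Adamts6, Adamts7, Adamts8, Adamts16 and Adamts19, and the 10 include Adam5, Adamts6, Adamts8 and Adamts19. These genes had 0 to 4 reads in all HSC libraries together and passed the read filter only through fibroblast libraries. Against HSCs there was little room to call them lower, so their rise is not independent support. The filter was the same for all tested genes. In NASH-fib against CCl4-fib 1 was higher and 8 were lower, beside 4.97% and 5.66%. The same shares of all tested genes apply to the counts of each family and gene list below. Each of the 42 calls was of groups whose libraries did not overlap. The median log2 fold change of the 35 members was 1.26 in CCl4-fib against HSCs (0.18 over all tested genes), 0.17 in NASH-fib against HSCs (-0.02) and -0.48 in NASH-fib against CCl4-fib (-0.11), and it was the same with genes at the floor set to their bound. Both comparisons with HSCs share the HSC libraries, so they are not independent of each other. Without NASH-fib replicate 1, the members that rose and fell numbered 17 and 4 in CCl4-fib against HSCs, 10 and 4 in NASH-fib against HSCs and 1 and 4 in NASH-fib against CCl4-fib. Without HSC replicate 2 they numbered 13 and 4, 11 and 3, and 2 and 8. The label prefix, a day and month of unstated meaning, was uneven between the groups, and with it as a term the counts were 11 and 3, 4 and 0, and 1 and 3. Of the 20, 13 and 9 calls in these comparisons, 15, 10 and 2 were kept whichever library was left out.

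**Figure D1:**
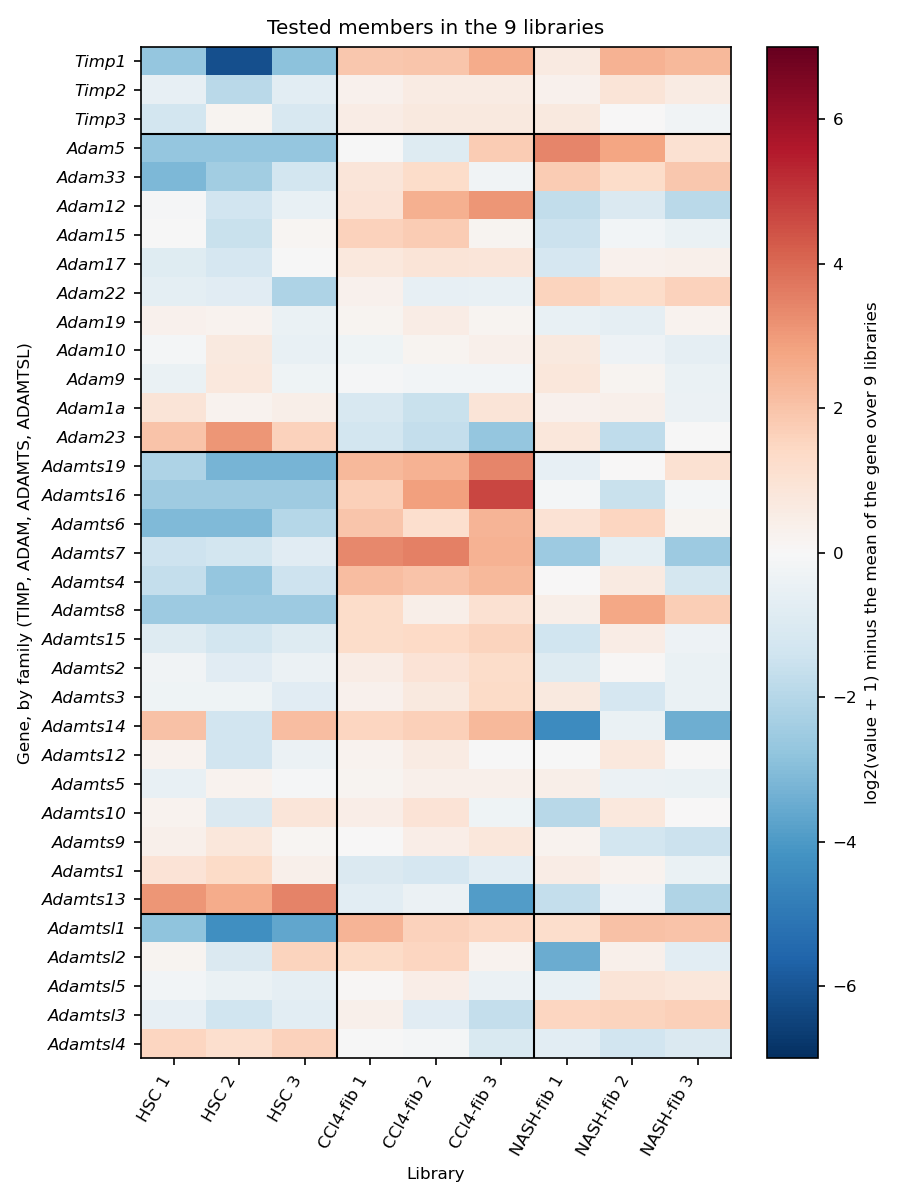
Heat map of the 35 tested members (rows, by family) in the 9 libraries (columns). Colour is log2(value + 1) minus the mean of the gene over all libraries. Most TIMP and ADAMTS rows are red in the CCl4-fib columns, and Adamts13, Adamts1, Adam23 and Adamtsl4 are red in the HSC columns.

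Markers of other cells moved with the groups, and their part in the changes below was not tested. Summed values of 10 hepatocyte markers ran from 25466 to 45690.2 in HSCs, from 2666 to 4105 in CCl4-fib and from 9013 to 30928 in NASH-fib. The 8 sinusoidal endothelial markers summed to 7188 to 15348 in HSCs, 229.9 to 271 in CCl4-fib and 1118 to 3754 in NASH-fib, and the 8 macrophage markers to 4781 to 15462, 373 to 765 and 2830.4 to 6270.3. None of these markers stayed at or under 3 reads throughout a group. The sums of 10 quiescent stellate cell markers were 41096 to 53964 in HSCs, 7257 to 18519 in CCl4-fib and 22415 to 32576 in NASH-fib. In the fibroblast groups Rgs5 made up much of this sum, with values from 2296 to 29830.0 over these 6 libraries. The retinoid enzyme gene Lrat ran from 7070.5 to 14894 in HSCs, from 95.4 to 348 for CCl4-fib and from 189 to 458 for NASH-fib, and Gfap was at most 8.73 in any fibroblast library. The sums of 8 markers of activated fibroblasts were 7857 to 13698, 55199 to 64069 and 28618 to 32293 in the same order. The 5 smooth muscle markers summed to 71.4 to 132 in HSCs, where Cnn1, Casq2 and Olfr558 were at 3 reads or fewer, to 2808 to 14232 in CCl4-fib and to 5795 to 20735 in NASH-fib. In the same order, the sums were 108 to 449.5, 6394 to 12624 and 2013 to 12779.5 for 5 mesothelial markers, and 183 to 444, 8353 to 11037 and 2624 to 6854 for 6 portal fibroblast markers. For 6 cholangiocyte markers they were 70.1 to 250.5 (with Epcam at 3 reads or fewer), 3488 to 4752 and 6065 to 11776. In NASH-fib Spp1 made up most of this sum, at 4847 to 10729. Krt19, which is also on the mesothelial list, ran from 771 to 2699 in CCl4-fib but from 53 to 469 in NASH-fib. By limma, 2 of these 6 markers were higher in NASH-fib than in CCl4-fib and 0 were lower. For 6 neutrophil markers all CCl4-fib libraries were below all HSC libraries, at 49. to 1048, 5.55 to 45.8 and 608 to 6348. In such libraries, fewer cells of a type and less RNA per cell cannot be told apart.

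Per kilobase of transcript, TIMPs made up the larger part of the summed level of the 47 members in both fibroblast groups. Their share of that sum ran from 36.1% to 38.1% in HSCs, from 73.9% to 77.4% in CCl4-fib and from 65.8% to 79.4% in NASH-fib, with no overlap between HSCs and either fibroblast group. ADAMTS genes held 27.6% to 33.2% in HSCs but 10.1% to 10.3% in CCl4-fib and 7.26% to 13.6% in NASH-fib. In level per kilobase, Adamts1 led in HSCs with a median of 491, followed by Timp3 with 446 and Timp2 with 366, and the ranges of these 3 overlapped. In CCl4-fib Timp1 led with 2122, ahead of Timp3 with 1522 and Timp2 with 921, and these ranges did not overlap. In NASH-fib the medians per kilobase were 2602 for Timp1, 969 for Timp3 and 922 for Timp2, and their ranges overlapped. Within the TIMPs, Timp1 held 0.523% to 9.18% of the summed level per kilobase in HSCs, 46.3% to 57.4% in CCl4-fib and 26.8% to 60.2% in NASH-fib.

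**Figure D2:**
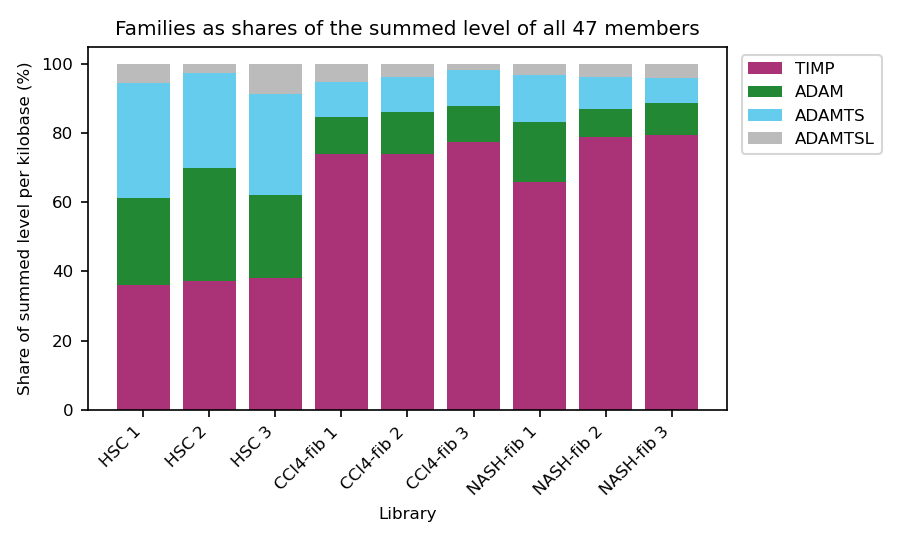
Stacked bars of the share of each family in the summed level per kilobase of all 47 members, in %, 1 bar per library. The TIMP part reaches 36.1% to 38.1% in the HSC bars and at least 65.8% in every fibroblast bar.

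Timp1 (NM_001044384, chrX:20870166-20874737, plus strand), a secreted inhibitor of many metalloproteinases, had the largest log2 fold change against HSCs of the members in both fibroblast groups, though by ratio of means Adamtsl1 was close to it in CCl4-fib and above it in NASH-fib, and members with few or no reads in HSCs have no firm ratio. Its values were 71.3, 5.82 and 63.4 in HSC replicates 1, 2 and 3, 1770.0, 1872 and 2911 for CCl4-fib and 742, 2563 and 2295 for NASH-fib. All fibroblast libraries were above all HSC libraries, and NASH-fib replicate 1 was the lowest of the 6. The mean was 46.6-fold higher in CCl4-fib (log2 fold change 6.07 ± 0.83 (SE), limma adjusted p = 0.00048) and 39.9-fold higher in NASH-fib (log2 fold change 5.69 ± 0.83 (SE), limma adjusted p = 0.00111). Both calls were kept in each of 20 alternative fits. Among the libraries whose labels open with the same day and month, 1 per group (HSC replicate 2, CCl4-fib replicate 1 and NASH-fib replicate 1), the values were 5.82 in HSCs, 1770.0 in CCl4-fib and 742 in NASH-fib. Reads were counted up to 3 per position, and Timp1 has a listed length of 882 bases. It held up to 3.46 reads per base in CCl4-fib and 3.26 in NASH-fib against 0.0692 in HSCs. Other genes held more, with up to 8.75 for Dcn in HSCs and 6.17 for Bgn in NASH-fib. Whether the limit held down Timp1 in fibroblasts therefore cannot be told from these values. The fibroblast groups overlapped (limma adjusted p = 0.786).

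Timp2 (NM_011594, chr11:118301061-118355411, minus strand), which both inhibits MMP2 and takes part in its activation, had values of 1490.5, 617 and 1325 in HSCs, 2725, 3329 and 3352 in the CCl4-fib libraries and 2770.4, 4272 and 3334 in the NASH-fib libraries. Every fibroblast library exceeded every HSC library. The mean was 2.74-fold higher in CCl4-fib (log2 fold change 1.55 ± 0.38 (SE), limma adjusted p = 0.0131) and 3.02-fold higher in NASH-fib (log2 fold change 1.67 ± 0.38 (SE), limma adjusted p = 0.0152). Without CCl4-fib replicate 2 the first call was lost (limma adjusted p = 0.0549), and without NASH-fib replicate 2 the second (limma adjusted p = 0.0649). Timp3 (NM_011595, chr10:86300412-86349505, plus strand), the matrix-bound TIMP that also inhibits Adam17 and several ADAMTS proteases, had values of 1811, 5067 and 2084 for HSCs, 6331, 7204 and 7112 for CCl4-fib and 7148, 4529 and 3725 for NASH-fib. The CCl4-fib libraries were above all HSC libraries, while HSC replicate 2 lay within the range of NASH-fib. The mean was 2.3-fold higher in CCl4-fib (log2 fold change 1.36 ± 0.43 (SE), limma adjusted p = 0.0383), and NASH-fib did not pass the test (log2 fold change 0.89 ± 0.43 (SE), limma adjusted p = 0.268). The CCl4-fib call of Timp3 was lost with edgeR (adjusted p = 0.126) and DESeq2 (adjusted p = 0.0983) and in 6 of 9 fits that left out a library. Its limma adjusted p was 0.133 without HSC replicate 1, 0.0904 without HSC replicate 3, 0.0917, 0.115 and 0.101 without CCl4-fib replicate 1, 2 or 3, and 0.0505 without NASH-fib replicate 2. Reads of either strand were counted, and 21.3% of the exon bases of Timp3 overlap exons of Syn3 on the opposite strand. Timp4 was not tested, with 0, 0 and 0 reads in HSCs, 19, 0 and 0 for CCl4-fib and 0, 8 and 1 for NASH-fib.

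The promoters of Timp1, Timp2, Timp3 and Adamts1 are shown because these genes had the highest median levels per kilobase in NASH-fib, a choice made after their values were seen, and because Timp1 rose and Adamts1 fell from HSCs to CCl4-fib. Each runs from 250 bases before to 50 bases after the RefSeq start, in build GRCm38.p6, which has the coordinates of mm10. They lie at chrX:20869916-20870215 on the plus strand (Timp1), chr11:118355362-118355661 on the minus strand (Timp2), chr10:86300162-86300461 on the plus strand (Timp3) and chr16:85803064-85803363 on the minus strand (Adamts1). Capitals mark the GC box (GGGCGG) on either strand, so that capitals that open with CC are a GC box read from the other strand. They also mark the TATA box (TATAAA).
Timp1: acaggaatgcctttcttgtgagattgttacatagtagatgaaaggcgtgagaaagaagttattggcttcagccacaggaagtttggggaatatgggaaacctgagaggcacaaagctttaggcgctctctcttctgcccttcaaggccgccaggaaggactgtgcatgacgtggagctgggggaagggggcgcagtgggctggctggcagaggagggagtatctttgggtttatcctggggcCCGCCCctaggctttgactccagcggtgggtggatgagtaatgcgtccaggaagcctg
Timp2: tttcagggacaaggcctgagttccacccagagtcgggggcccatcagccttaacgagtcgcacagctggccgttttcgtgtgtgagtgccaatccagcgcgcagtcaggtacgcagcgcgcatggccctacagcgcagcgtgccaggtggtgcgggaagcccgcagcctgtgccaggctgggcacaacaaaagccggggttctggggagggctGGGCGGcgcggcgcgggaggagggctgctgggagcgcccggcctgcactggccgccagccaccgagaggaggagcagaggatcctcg
Timp3: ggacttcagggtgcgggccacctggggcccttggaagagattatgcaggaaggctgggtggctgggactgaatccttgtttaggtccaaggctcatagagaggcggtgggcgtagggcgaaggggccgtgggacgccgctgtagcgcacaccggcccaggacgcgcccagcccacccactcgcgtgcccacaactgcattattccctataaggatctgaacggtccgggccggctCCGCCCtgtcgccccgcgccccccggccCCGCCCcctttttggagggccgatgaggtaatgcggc
Adamts1: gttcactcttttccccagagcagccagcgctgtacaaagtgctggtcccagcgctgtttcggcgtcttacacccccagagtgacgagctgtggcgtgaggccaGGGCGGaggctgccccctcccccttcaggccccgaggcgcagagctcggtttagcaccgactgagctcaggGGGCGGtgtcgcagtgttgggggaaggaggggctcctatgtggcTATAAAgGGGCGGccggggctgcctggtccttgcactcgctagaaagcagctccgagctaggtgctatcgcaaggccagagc

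With the start at position 0, Timp1 held 1 GC box at -8 to -3, Timp2 held 1 at -37 to -32 and Timp3 held 2. Adamts1 held 3 GC boxes and a TATA box at -32 to -27, and no other of these 4 promoters held TATAAA. The motif TGAGTCA, bound by AP-1 and searched on both strands, was found in none of these 4 windows. Only this exact run of bases was searched for, so AP-1 sites of other sequence are not covered. The Timp1 window, for example, holds TGAGTAA, which differs from it at 1 base. Of 32851 RefSeq promoters of this length, 35.7% held the GC box, 13.6% held TATAAA and 5.2% held TGAGTCA. A promoter was listed for 27 of the 47 members, and TGAGTCA occurred in those of Adam19 and Adam1b.

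**Figure D3:**
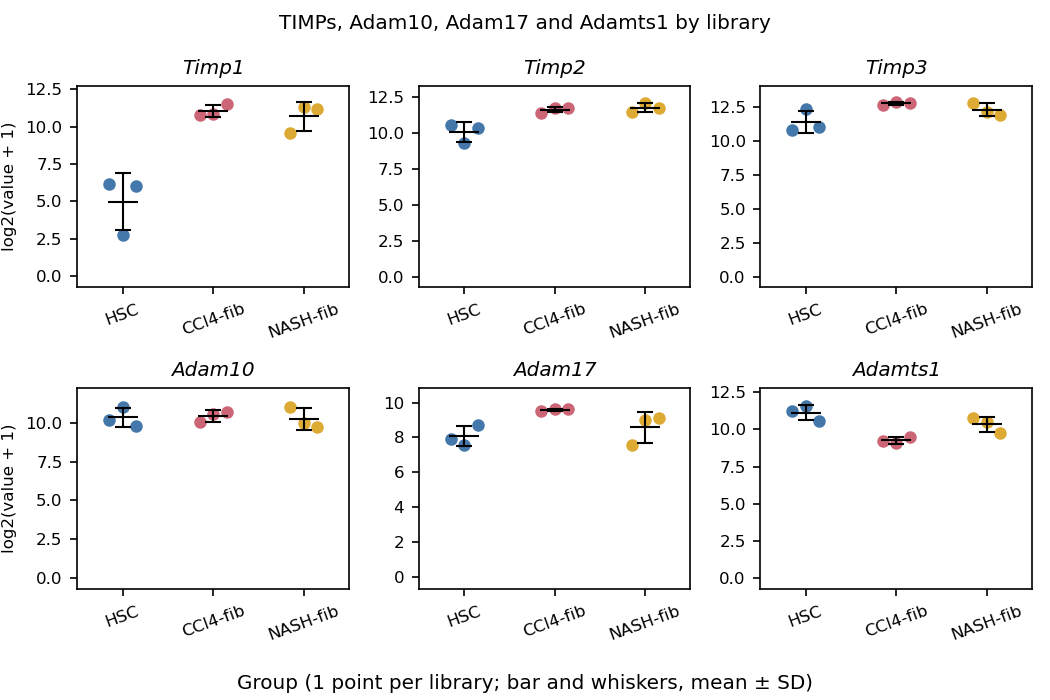
Points give log2(value + 1) of Timp1, Timp2, Timp3, Adam10, Adam17 and Adamts1 in each library, with the mean and SD (n = 3) of each group as bar and whiskers. Timp1 separates both fibroblast groups from HSCs, Adam10 overlaps in all groups, and Adamts1 is lowest in CCl4-fib.

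Of 7 tested ADAMs with protease activity outside the germ line, 3 rose in CCl4-fib and 1 in NASH-fib against HSCs, and of the sheddases Adam10 and Adam17 only Adam17 passed the test, in CCl4-fib. Adam10, the main sheddase of Notch receptors and cadherins, had values of 1167, 2113 and 892 in HSCs, 1046, 1508 and 1689 in the CCl4-fib libraries and 2103, 1005 and 832 in the NASH-fib libraries. All groups overlapped, and none of the 3 comparisons was called, with log2 fold changes of 0.09 ± 0.45 in CCl4-fib and -0.11 ± 0.45 in NASH-fib against HSCs (limma adjusted p = 0.894 and 0.948). Adam17, the TNF-α converting enzyme, had values of 238, 191 and 417 for HSCs, 716, 794 and 779 for CCl4-fib and 189, 516 and 554 for NASH-fib. CCl4-fib lay above all other libraries, whereas NASH-fib overlapped with HSCs through replicate 1. The mean was 2.7-fold higher in CCl4-fib than in HSCs (log2 fold change 1.51 ± 0.46 (SE), limma adjusted p = 0.0337). This call was lost with edgeR (adjusted p = 0.0518) and when HSC replicate 1 or 2, or CCl4-fib replicate 1, 2 or 3, was left out (limma adjusted p = 0.0975, 0.104, 0.0848, 0.101 and 0.0875). Exons of Iah1 on the opposite strand overlap 4.3% of the exon bases of Adam17. The difference between Adam10 and Adam17 was not itself tested.

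Adam12 (NM_007400, chr7:133883199-134225097, minus strand), a protease of activated mesenchymal cells, was higher in CCl4-fib than in both other groups. Its values were 78.3, 32. and 56.2 in HSCs, 162, 466 and 701 in the CCl4-fib libraries and 24.5, 41. and 21.6 in the NASH-fib libraries. Each CCl4-fib library exceeded the other 6. The mean in CCl4-fib was 7.98-fold that of HSCs (log2 fold change 2.83 ± 0.59 (SE), limma adjusted p = 0.00527) and 15.3-fold that of NASH-fib, a log2 fold change of -3.70 ± 0.59 (SE) for NASH-fib against CCl4-fib (limma adjusted p = 0.00912). Both calls were kept in all 19 alternatives. Adam33, an ADAM of fibroblasts and smooth muscle, had values of 2.34, 4.37 and 10.8 for HSCs, 52.4, 68.9 and 23.9 for CCl4-fib and 101, 70.4 and 107 for NASH-fib. No HSC library reached a fibroblast library, and all NASH-fib values exceeded those of CCl4-fib. The mean was 8.31-fold higher in CCl4-fib (log2 fold change 2.93 ± 0.61 (SE), limma adjusted p = 0.00532) and 15.9-fold higher in NASH-fib (log2 fold change 3.95 ± 0.61 (SE), limma adjusted p = 0.0016), while the fibroblast groups did not differ at the threshold (limma adjusted p = 0.294). Of the other proteases of this kind, Adam9, Adam15 and Adam19 were tested and not called in any comparison. Adam15 was nearest to a call, with values of 45.8 to 143 in CCl4-fib beside 13.1 to 44.2 in HSCs (log2 fold change 1.67 ± 0.65 (SE), limma adjusted p = 0.0806). Adam9 ran from 227 to 542 and Adam19 from 63.2 to 142 over all libraries.

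Adam22 and Adam23, which lack protease activity and serve as receptors for LGI proteins in neurons, went in opposite directions in NASH-fib. Adam22 had values of 35.1, 33.5 and 12. in HSCs, 70.6, 38.3 and 40.1 in the CCl4-fib libraries and 174, 143 and 176 in the NASH-fib libraries. NASH-fib was above all other libraries. Its mean was 6.12-fold higher than in HSCs (log2 fold change 2.70 ± 0.51 (SE), limma adjusted p = 0.00489), and against CCl4-fib the adjusted p lay just past the threshold (log2 fold change 1.76 ± 0.51 (SE), limma adjusted p = 0.0509). Adam23 (NM_011780, chr1:63445891-63596101, plus strand) was among the most abundant members in HSCs, with values of 1206, 2615 and 947, against 124, 96.1 and 45.8 for CCl4-fib and 539.7, 87.3 and 304 for NASH-fib. All HSC libraries were above all fibroblast libraries. The mean in HSCs was 17.9-fold that of CCl4-fib (log2 fold change -4.12 ± 0.67 (SE), limma adjusted p = 0.00134) and 5.12-fold that of NASH-fib (log2 fold change -2.56 ± 0.67 (SE), limma adjusted p = 0.0292). The NASH-fib call was lost with edgeR (adjusted p = 0.0699) and when HSC replicate 1 or 2, or NASH-fib replicate 2 or 3, was left out (limma adjusted p = 0.0714, 0.0937, 0.0856 and 0.0618).

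Among the ADAMs known from the male germ line, Adam5 was read in fibroblasts. It had 0 reads in every HSC library, 7, 3 and 23 reads in CCl4-fib, and values of 5.56, 2.55 and 21.9 for CCl4-fib and 70.7, 44.5 and 12.8 for NASH-fib. Against the floor it was at least 2.62-fold higher in CCl4-fib (limma adjusted p = 0.0264) and at least 11.2-fold higher in NASH-fib (limma adjusted p = 0.00271). Without HSC replicate 1 or 2, or CCl4-fib replicate 1 or 3, the CCl4-fib call was lost (limma adjusted p = 0.0634, 0.0574, 0.0586 and 0.0957), as it was with a pseudocount of 10 (limma adjusted p = 0.195). Adam5 lies on chromosome 8 between Adam3 and Adam32, and Adam32 ends 807 bases from Adam9. Adam3 and Adam32 had at most 1 and 4 reads in any library. Adam1a, the other tested gene of this kind, was not called and had values of 2.55 to 19.1, and 24.0% of its exon bases are shared with Mapkapk5 and 11.3% with Tmem116. The 12 untested members had at most 36 reads, the highest being Adam11, followed by Timp4 with 19, Adam8 with 16, Adam4 with 12 and Adamts17 with 11. Adamts20, Adam21, Adam32, Adam30, Adam28, Adam3 and Adam1b had at most 5.

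**Figure D4:**
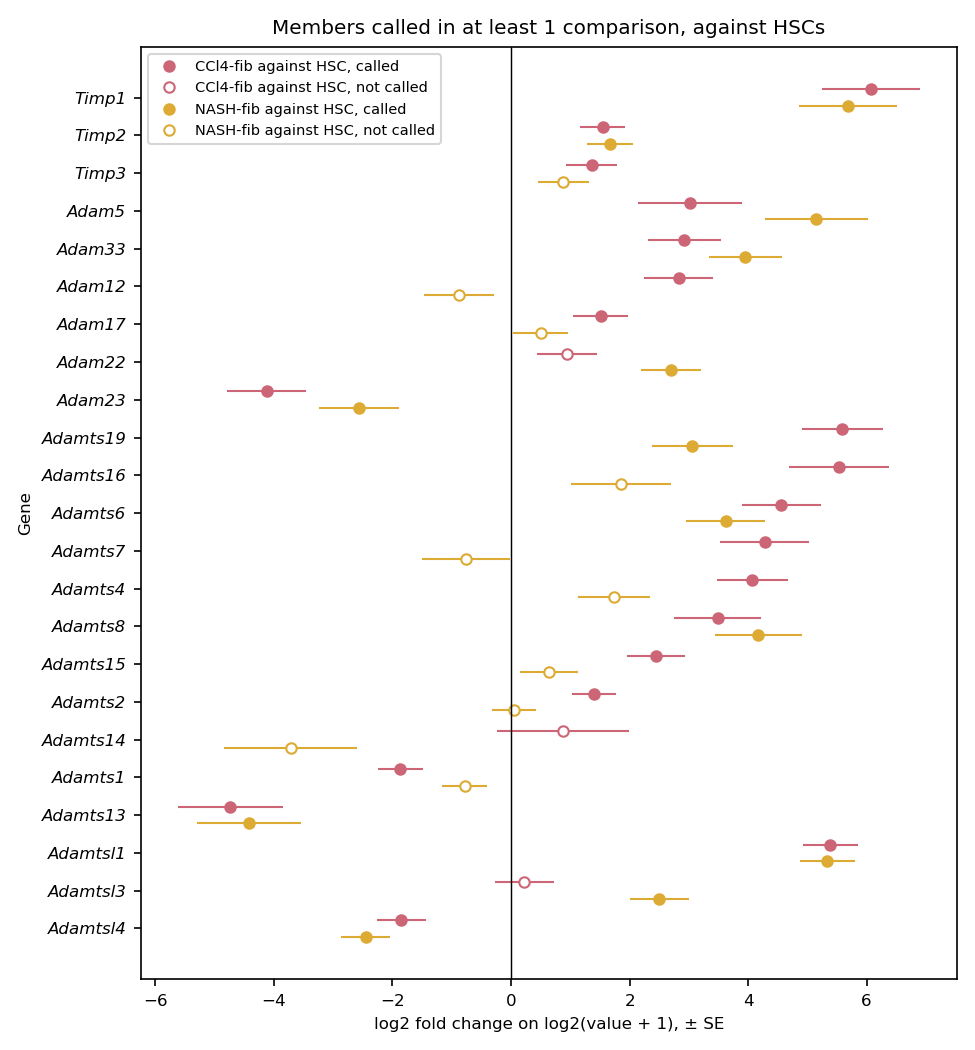
Log2 fold changes against HSCs, on log2(value + 1), with the SE as whiskers, for the 23 members called in at least 1 of the 3 comparisons. Filled points were called and open points were not. Timp1 and Adamtsl1 lie above 5 in both comparisons, and Adam12 and Adamts7 are called in CCl4-fib and lie below 0, uncalled, in NASH-fib.

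Of 6 tested proteoglycanases, ADAMTS proteases that cut aggrecan and versican, 3 rose and 1 fell in CCl4-fib against HSCs, and 1 rose in NASH-fib. Adamts4 had values of 7.01, 2.91 and 8.37 for HSCs, 114, 99.5 and 120.2 for CCl4-fib and 24.5, 38.3 and 9.83 for NASH-fib. The groups did not overlap, with CCl4-fib highest and HSCs lowest. The mean in CCl4-fib was 18.2-fold that of HSCs (log2 fold change 4.07 ± 0.60 (SE), limma adjusted p = 0.000771), while NASH-fib against HSCs was not called (log2 fold change 1.74 ± 0.60 (SE), limma adjusted p = 0.0963). Adamts15 had values of 56.1, 42.2 and 56.2 in HSCs, 262, 274 and 317 in the CCl4-fib libraries and 39.4, 154 and 83.5 in the NASH-fib libraries. CCl4-fib was above all other libraries, with a mean 5.52-fold that of HSCs (log2 fold change 2.45 ± 0.49 (SE), limma adjusted p = 0.00404). Adamts8 had no reads in HSCs, and values of 13.5, 6.8 and 11.5 for CCl4-fib and 6.8, 37.4 and 18.7 for NASH-fib. It was at least 2.77-fold higher than the floor in CCl4-fib (limma adjusted p = 0.00564) and at least 5.48-fold higher in NASH-fib (limma adjusted p = 0.00345). Adamts8 and Adamts15 are neighbours on chromosome 9, with 20111 bases between them.

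Adamts1 (NM_009621, chr16:85793828-85803113, minus strand), the proteoglycanase with the highest median level per kilobase in HSCs and in NASH-fib, fell in CCl4-fib. Its values were 2392, 3052 and 1530.3 for HSCs, 591, 539 and 723 for CCl4-fib and 1735, 1436 and 882 for NASH-fib. CCl4-fib lay below all other libraries, and NASH-fib overlapped with HSCs. The mean in HSCs was 3.76-fold that of CCl4-fib (log2 fold change -1.87 ± 0.38 (SE), limma adjusted p = 0.00431), a call kept in all 19 alternatives, and NASH-fib against HSCs was not called (log2 fold change -0.78 ± 0.38 (SE), limma adjusted p = 0.259). Adamts5, its neighbour on chromosome 16 at a distance of 55044 bases, was not called in any comparison, with values of 651 to 1101 in HSCs, 1059 to 1196 in CCl4-fib and 670.3 to 1269.7 in NASH-fib. Adamts9 was not called either and ran from 48.2 to 242. Of 6 tested genes on a list of ADAMTS substrates, which holds the proteoglycans Vcan, Bgn and Dcn as well as Thbs1, Vwf and Tfpi2, Vcan and Thbs1 rose and 0 fell in CCl4-fib against HSCs by limma (2 and 2 at an unadjusted p under 0.05), and the same 2 rose and 0 fell in NASH-fib (2 and 0). Versican (Vcan), a large proteoglycan, had values of 2.34, 14.6 and 13.2 in HSCs, 319.9, 612 and 633 in the CCl4-fib libraries and 186, 130.0 and 167 in the NASH-fib libraries. It rose in both (log2 fold change 5.79 ± 0.60 (SE), limma adjusted p = 9.43e-05 in CCl4-fib and 4.15 ± 0.60, limma adjusted p = 0.00105, in NASH-fib).

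Of the 3 procollagen N-proteinases, which remove the amino-terminal propeptide of fibrillar collagens, Adamts2 rose in CCl4-fib. Adamts2 had values of 416, 278 and 359 for HSCs, 692, 944 and 1178 for CCl4-fib and 258, 518 and 347 for NASH-fib. CCl4-fib was above all other libraries, and NASH-fib overlapped with HSCs. The mean in CCl4-fib was 2.67-fold that of HSCs (log2 fold change 1.40 ± 0.37 (SE), limma adjusted p = 0.0178), a call lost when HSC replicate 2 or CCl4-fib replicate 2 or 3 was left out (limma adjusted p = 0.0556, 0.0662 and 0.0723). Adamts14 had values of 85.3, 7.28 and 94.5 in HSCs, 59.5, 66.3 and 103 in the CCl4-fib libraries and 0, 14.3 and 0.98 in the NASH-fib libraries. HSC replicate 2 lay apart from the other HSC libraries, within the range of NASH-fib, and neither comparison with HSCs was called. The log2 fold change was 0.88 ± 1.12 (SE) in CCl4-fib (limma adjusted p = 0.582), and in NASH-fib, where the mean was 12.3-fold lower, the adjusted p was just past the threshold (log2 fold change -3.71 ± 1.12 (SE), limma adjusted p = 0.0559). Adamts3 was not called, with 222 to 459.9 in CCl4-fib beside 104 to 144 in HSCs (log2 fold change 1.26 ± 0.50 (SE), limma adjusted p = 0.0827). Of 9 tested genes of a list of procollagens and their processing enzymes, 8 rose and 0 fell in CCl4-fib against HSCs by limma (8 and 0 at an unadjusted p under 0.05), and 4 rose and 1 fell in NASH-fib. Col1a1, the α1 chain of collagen I, had values of 599.7, 968 and 452 for HSCs, 8485, 11002 and 11375 for CCl4-fib and 4729, 4498 and 3738 for NASH-fib. The groups did not overlap (log2 fold change 3.99 ± 0.35 (SE), limma adjusted p = 4.03e-05 in CCl4-fib). Fibroblasts were sorted by a collagen promoter reporter and HSCs were not, so a rise of collagen genes against HSCs cannot be told apart from that selection. Bmp1, the C-proteinase of procollagens, had values of 60.8, 75.7 and 117 in HSCs, 792, 1229.8 and 1451 in the CCl4-fib libraries and 73.4, 183 and 187 in the NASH-fib libraries, and rose in CCl4-fib (log2 fold change 3.77 ± 0.46 (SE), limma adjusted p = 0.000256) while NASH-fib was not called (log2 fold change 0.73 ± 0.46 (SE), limma adjusted p = 0.424).

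Adamts7 (NM_001003911, chr9:90162978-90200102, plus strand), one of the pair that cuts cartilage oligomeric matrix protein, was read almost wholly in CCl4-fib. It had 1, 1 and 2 reads in HSCs and 0, 3 and 0 in NASH-fib, and values of 60.3, 67.2 and 30.5 in CCl4-fib. Scaled reads in CCl4-fib were 31.9-fold (exact 95% counting interval 12.3 to 118) those of HSCs (limma adjusted p = 0.00193). Against NASH-fib they were 51.5-fold (exact 95% counting interval 17.3 to 252) as high (limma adjusted p = 0.00803). Both calls were kept in all 18 alternatives that tested it. Exons of Tbc1d2b overlap 1.9% of its exon bases on the opposite strand. Adamts12, the other of the pair, was not called and ran from 17.5 to 77.5.

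Adamts6, Adamts16 and Adamts19 had 1, 0 and 1 reads in all HSC libraries together, and all 3 rose in CCl4-fib. They passed the read filter only through fibroblast libraries, so against HSCs a rise was the only call open to them. Adamts6, related to the microfibril protease Adamts10, had values of 0, 0 and 1.2 for HSCs, 31.8, 18.7 and 43.9 for CCl4-fib and 16.3, 23.2 and 8.85 for NASH-fib. All fibroblast libraries exceeded all HSC libraries. Scaled reads were 73.7-fold (exact 95% counting interval 13. to 2940.0) those of HSCs in CCl4-fib (limma adjusted p = 0.000745) and 38.9-fold (exact 95% counting interval 6.64 to 1570.0) in NASH-fib (limma adjusted p = 0.00452). Adamts16 had no reads in HSCs, values of 16.7, 39.1 and 138 for CCl4-fib and 4.08, 0.89 and 3.93 for NASH-fib. It was at least 16.9-fold higher in CCl4-fib than the floor (limma adjusted p = 0.000971), with replicate 3 the highest, and NASH-fib was not called (limma adjusted p = 0.23). Adamts19 had values of 1.17, 0 and 0 in HSCs, 44.5, 51. and 102 in the CCl4-fib libraries and 5.44, 8.91 and 18.7 in the NASH-fib libraries. The groups did not overlap, and CCl4-fib was highest. Scaled reads were 152-fold (exact 95% counting interval 27. to 6040.0) those of HSCs in CCl4-fib (limma adjusted p = 0.000251) and 27.3-fold (exact 95% counting interval 4.57 to 1110.0) in NASH-fib (limma adjusted p = 0.0133), the latter call lost without NASH-fib replicate 3 (limma adjusted p = 0.0607). Adamts10 was not called and ran from 20.4 to 155.

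Adamts13 (NM_001290464, chr2:26973416-26998580, plus strand), which cuts von Willebrand factor and is made in liver chiefly by stellate cells, fell in both fibroblast groups. Its values were 247, 179 and 324 for HSCs, 16.7, 21.3 and 0.95 for CCl4-fib and 8.16, 22.3 and 5.9 for NASH-fib. Each HSC library was above all fibroblast libraries, and the fibroblast groups overlapped. The mean in HSCs was 19.3-fold that of CCl4-fib (log2 fold change -4.74 ± 0.88 (SE), limma adjusted p = 0.00288) and 20.6-fold that of NASH-fib (log2 fold change -4.42 ± 0.88 (SE), limma adjusted p = 0.00719). Both calls were kept when any library was left out, but the NASH-fib call was lost with the label prefix as a term (limma adjusted p = 0.231). Von Willebrand factor (Vwf), an endothelial product, had values of 21., 13.1 and 175 in HSCs, 9.52, 3.4 and 7.63 in the CCl4-fib libraries and 28.6, 86.4 and 170.0 in the NASH-fib libraries, and was higher in NASH-fib than in CCl4-fib (log2 fold change 3.37 ± 0.96 (SE), limma adjusted p = 0.0489). The endothelial marker sum was also higher in NASH-fib, at 1118 to 3754, than in CCl4-fib, at 229.9 to 271.5. It did not follow Vwf in the other groups. The sum was highest in HSCs, at 7188 to 15348, but Vwf was not called between NASH-fib and HSCs (limma adjusted p = 0.649). In NASH-fib replicates 1, 2 and 3 the sums were 2104, 1118 and 3754, beside Vwf values of 28.6, 86.4 and 170.0. The part of endothelial cells in the Vwf difference was not tested.

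Of the 5 ADAMTSL genes, Adamtsl1 changed most. Adamtsl1 (punctin) had values of 25.7, 8.74 and 14.4 for HSCs, 989, 569 and 518 for CCl4-fib and 445, 789 and 745 for NASH-fib. The lowest fibroblast library was far above the highest HSC library, and the fibroblast groups overlapped. The mean was 42.5-fold higher in CCl4-fib (log2 fold change 5.39 ± 0.46 (SE), limma adjusted p = 3.86e-05) and 40.5-fold higher in NASH-fib (log2 fold change 5.33 ± 0.46 (SE), limma adjusted p = 5.64e-05), and both calls were kept in all 19 alternatives. Adamtsl3 (punctin-2) had values of 109, 59.7 and 94.5 in HSCs, 208, 92.7 and 50.6 in the CCl4-fib libraries and 465, 482 and 512 in the NASH-fib libraries. The NASH-fib libraries lay above all others and close together. Their mean was 5.55-fold that of HSCs (log2 fold change 2.50 ± 0.50 (SE), limma adjusted p = 0.00717), and CCl4-fib against HSCs was not called (log2 fold change 0.22 ± 0.50 (SE), limma adjusted p = 0.765). Adamtsl4, which binds fibrillin-1 microfibrils, fell in both groups, with values of 255, 207 and 276 for HSCs, 87.3, 81.7 and 42. for CCl4-fib and 54.4, 34.7 and 44.2 for NASH-fib. HSCs did not overlap with either (log2 fold change -1.85 ± 0.42 (SE), limma adjusted p = 0.00802 in CCl4-fib and -2.45 ± 0.42, limma adjusted p = 0.00282, in NASH-fib). Adamtsl2 and Adamtsl5 were not called, and Adamtsl2 was uneven within each group, with 133, 56.8 and 342 in HSCs and 9.52, 149 and 69.8 in NASH-fib.

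Of 10 tested genes of fibrillin microfibrils and their partners, 7 rose and 0 fell in CCl4-fib against HSCs by limma (7 and 0 at an unadjusted p under 0.05), and 7 rose and 1 fell in NASH-fib. Fibrillin-1 (Fbn1), to which several ADAMTSL proteins bind, had values of 429, 309 and 434 in HSCs, 2607, 2375 and 2773 in the CCl4-fib libraries and 1154, 1356 and 1299 in the NASH-fib libraries, with no overlap between groups (log2 fold change 2.74 ± 0.29 (SE), limma adjusted p = 0.000108 in CCl4-fib and 1.71 ± 0.29, limma adjusted p = 0.00277, in NASH-fib). Fbn2 had no reads in HSCs and values of 233, 327 and 239 for CCl4-fib and 68., 119 and 53.1 for NASH-fib, at least 69.7-fold and at least 21.-fold higher than the floor (limma adjusted p = 7.76e-06 and 3.49e-05). Ltbp2, a fibrillin-binding matrix protein, went from 1.46 to 5.84 in HSCs to 882 to 1224 in CCl4-fib and 71.8 to 231 in NASH-fib, and Mfap5, a microfibril glycoprotein, from 7.28 to 23.4 to 2536 to 3335 and 2054 to 3416. Papln, the gene of this list that fell in NASH-fib, had values of 14., 20.4 and 32.3 in HSCs and 0, 1.78 and 4.91 in NASH-fib (log2 fold change -3.12 ± 0.76 (SE), limma adjusted p = 0.0208). Among all 63 tested partners of the 3 families, 25 rose and 5 fell in CCl4-fib against HSCs, and 20 rose and 6 fell in NASH-fib against HSCs, beside the same shares of all tested genes as given for the members.

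Of 6 tested inhibitors and clearance receptors outside the TIMP family, 2 rose and 1 fell in CCl4-fib, and 2 rose and 0 fell in NASH-fib against HSCs by limma (2 and 1 at an unadjusted p under 0.05). Reck, a membrane-anchored inhibitor of metalloproteinases that include Adam10, fell in CCl4-fib, with values of 509.7, 582 and 501 for HSCs, 140.5, 98.7 and 92.5 for CCl4-fib and 197, 362 and 222 for NASH-fib. The groups did not overlap (log2 fold change -2.28 ± 0.36 (SE), limma adjusted p = 0.00109 in CCl4-fib), and NASH-fib against HSCs was not called (log2 fold change -1.07 ± 0.36 (SE), limma adjusted p = 0.0817). Of 11 tested cofactors and partners of the sheddases, 1 rose and 1 fell in CCl4-fib, and 3 rose and 0 fell in NASH-fib (3 and 1 at an unadjusted p under 0.05). Rhbdf2, which brings Adam17 to the cell surface, was not called, with 44.8 to 71.4 in CCl4-fib and 16.7 to 32. in HSCs (log2 fold change 1.34 ± 0.49 (SE), limma adjusted p = 0.0667). Lrp1, the endocytic receptor that clears several ADAMTS proteases and TIMPs, had values of 1100.0, 716 and 1875 in HSCs, 2889, 2772 and 2112 in the CCl4-fib libraries and 211, 1201 and 751 in the NASH-fib libraries. It was lower in NASH-fib than in CCl4-fib (log2 fold change -2.16 ± 0.59 (SE), limma adjusted p = 0.0435) and uncalled against HSCs. Of 21 tested shed ligands and receptors, 5 rose and 3 fell in CCl4-fib and 2 rose and 4 fell in NASH-fib against HSCs. Notch1, a receptor cut by Adam10, had values of 408 to 719.7 in HSCs, 42.9 to 139.7 in CCl4-fib and 73.4 to 186 in NASH-fib. It fell in both fibroblast groups (log2 fold change -2.71 ± 0.52 (SE), limma adjusted p = 0.00322 in CCl4-fib and -2.04 ± 0.52, limma adjusted p = 0.0249, in NASH-fib). Cdh2 (N-cadherin), at 796 to 1111 in HSCs, 134 to 399 in CCl4-fib and 99.3 to 182 in NASH-fib, also fell in both. Its log2 fold change was -2.04 ± 0.44 (SE) in CCl4-fib (limma adjusted p = 0.00601) and -2.81 ± 0.44 (SE) in NASH-fib (limma adjusted p = 0.00162). Other Notch receptors on this list differed from Notch1. Notch3 rose in both fibroblast groups (log2 fold change 3.66 ± 0.96 (SE), limma adjusted p = 0.0169 in CCl4-fib and 5.42 ± 0.96, limma adjusted p = 0.0035, in NASH-fib), and Notch2 was not called in any comparison. Pcsk6, a proprotein convertase of the kind that activates these proteases, was higher in NASH-fib, at 389 to 436, than in CCl4-fib, at 59.2 to 125 (log2 fold change 2.28 ± 0.49 (SE), limma adjusted p = 0.0207).

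Between the fibroblast groups, 8 members were lower in NASH-fib than in CCl4-fib, 7 of them ADAMTS genes. Adam12 and Adamts7 were described above. Adamts16, at 4.08, 0.89 and 3.93 in NASH-fib, and Adamts14 were 21.8-fold and 15.-fold lower by mean value (log2 fold change -3.68 ± 0.85 (SE), limma adjusted p = 0.0254 for Adamts16, and -4.59 ± 1.12, limma adjusted p = 0.0297, for Adamts14). Adamts19 (log2 fold change -2.53 ± 0.68 (SE), limma adjusted p = 0.0415), Adamts4 (log2 fold change -2.34 ± 0.60 (SE), limma adjusted p = 0.0353) and Adamts15 (log2 fold change -1.81 ± 0.49 (SE), limma adjusted p = 0.0407) were 5.98-fold, 4.59-fold and 3.08-fold lower, and Adamts2 was 2.5-fold lower (log2 fold change -1.35 ± 0.37 (SE), limma adjusted p = 0.0435). Adamtsl3 alone was higher, with a mean 4.15-fold that of CCl4-fib (log2 fold change 2.28 ± 0.50 (SE), limma adjusted p = 0.0222). No TIMP differed at the threshold, with -0.38 ± 0.83 for Timp1, 0.13 ± 0.38 for Timp2 and -0.48 ± 0.43 for Timp3 on the log2 scale. Of the 63 tested partners, 5 were higher and 13 lower, beside 4.97% and 5.66% of all tested genes. Among the 13 were 5 procollagen genes (Col1a1, Col1a2, Col3a1, Col5a1 and Col5a2) and the protease gene Bmp1.

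Of these 9 calls, 2 were kept whichever library was left out, a step that also leaves fewer libraries to test. Members called higher and lower numbered 1 and 3 without CCl4-fib replicate 1, 0 and 2 without CCl4-fib replicate 2, 0 and 2 without CCl4-fib replicate 3, 0 and 2 when NASH-fib replicate 3 was dropped, 1 and 4 without NASH-fib replicate 1 and 1 and 5 without HSC replicate 1. Where limma called 0 as higher, 2 (without CCl4-fib replicate 2), 4 and 4 members were higher at an unadjusted p under 0.05. Without HSC replicate 2, HSC replicate 3 or NASH-fib replicate 2, the counts were 2 and 8, 2 and 7, and 2 and 7. Over all tested genes, the full fit called 678 higher and 773 lower. Without CCl4-fib replicates 1, 2 and 3 these were 337 and 195, 140 and 72, and 297 and 398. Without NASH-fib replicates 1, 2 and 3 they were 326 and 358, 791 and 1013, and 113 and 156. Without HSC replicates 1, 2 and 3 they were 551 and 581, 794 and 992, and 666 and 795. Adam12 and Adamts7 were called in all 9 of these fits. Adamtsl3 and Adamts16 each lost their call in 3 of them, without CCl4-fib replicate 2 or 3 or NASH-fib replicate 3 (limma adjusted p = 0.0916, 0.0632 and 0.0734 for Adamtsl3, and 0.0929, 0.0812 and 0.0636 for Adamts16). Adamts14 was lost without CCl4-fib replicate 1, 2 or 3 or NASH-fib replicate 1 or 3 (limma adjusted p = 0.0809, 0.102, 0.0914, 0.077 and 0.0931). Without those same libraries in that order, or HSC replicate 1, the values were 0.105, 0.133, 0.117, 0.0883, 0.1 and 0.0608 for Adamts15 and 0.106, 0.119, 0.101, 0.0664, 0.115 and 0.0508 for Adamts4. Adamts2 was lost without these 6 (limma adjusted p = 0.0751, 0.152, 0.142, 0.108, 0.114 and 0.0621) and without HSC replicate 3 (0.0534). Adamts19 was lost without any 1 of the CCl4-fib libraries (limma adjusted p = 0.0869, 0.126 and 0.136) or of the NASH-fib libraries (0.115, 0.067 and 0.0645). Members higher and lower numbered 1 and 8 in limma, 2 and 7 in limma with upper-quartile factors, and 2 and 4 in edgeR and 4 and 9 in DESeq2, which change both the test and the scaling. The median log2 fold change of all tested genes was -0.11, -0.01, 0.14 and 0.12 in these fits.

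**Figure D5:**
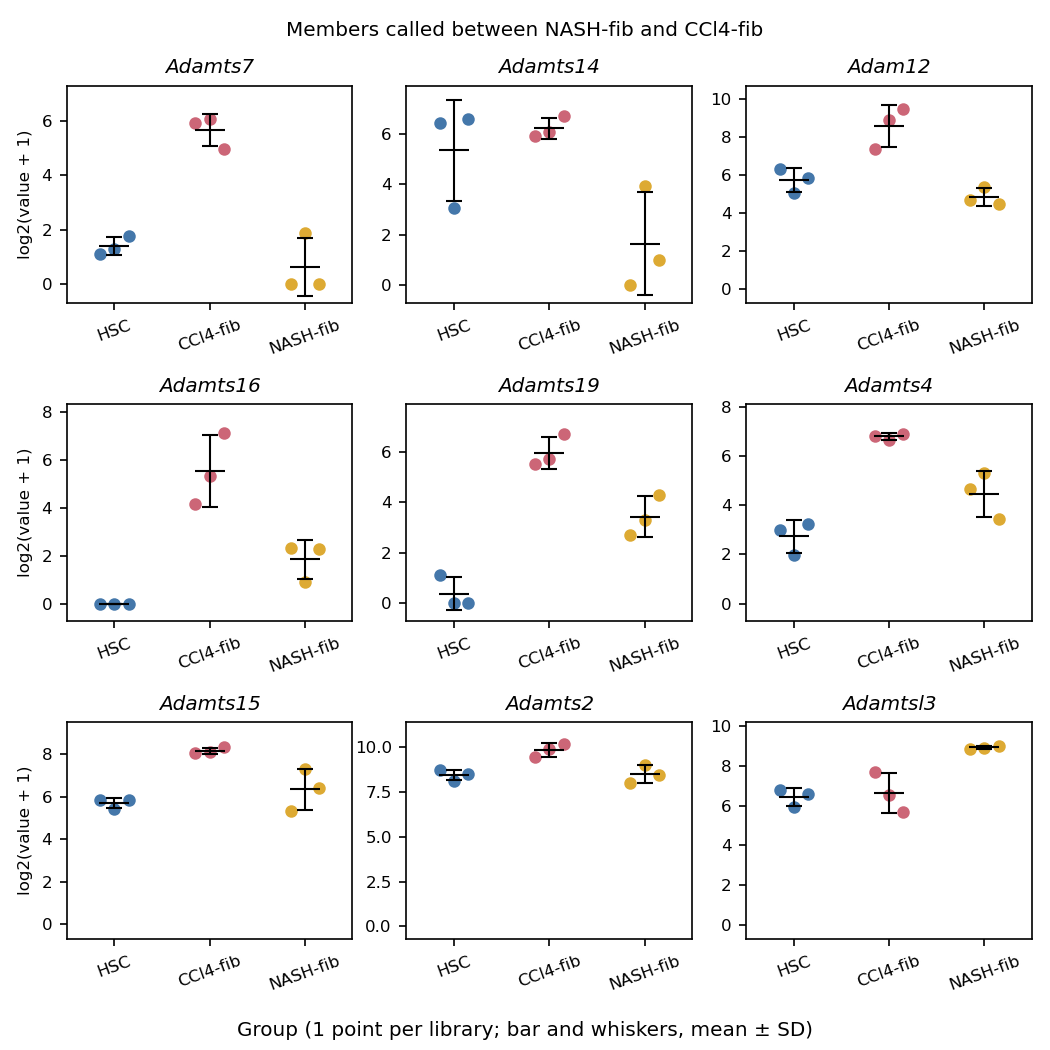
Points give log2(value + 1) in each library of the 9 members called between NASH-fib and CCl4-fib, with the mean and SD (n = 3) as bar and whiskers. In 8 panels every CCl4-fib point lies above every NASH-fib point, and in the Adamtsl3 panel every NASH-fib point lies above the other groups.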

How the data were processed

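RNA from 9 pooled-cell libraries (HSC, CCl4-fib and NASH-fib, 3 each) was amplified with a SMARTer kit and read single-end. The labels name CASAVA, STAR and mm10, and versions are not given in the sources used here. Per the file headers, the authors counted exon reads with HOMER on either strand, with at most 3 reads per position, and deposited a scaled signal per gene after a DESeq2-based normalization over 10 libraries, of which 9 are columns of the file. The 9 columns nevertheless sum to nearly equal totals (4471988 to 4471995), so the values are scaled to total reads and carry no DESeq2 size factor. Recovered to whole reads, 100% of values came out whole within 0.02. Group means were compared by limma 3.58.1 (R 4.3.3) on log2(value + 1), in 1 fit over all 9 libraries with a trended empirical Bayes variance, over 13651 genes kept by filterByExpr of edgeR (at least 10 reads). Adjustment was by Benjamini-Hochberg, and calls needed an adjusted p below 0.05 with a log2 fold change of 1 or more up or down.

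Alternatives were edgeR 4.0.16 and DESeq2 1.42.0 on recovered reads, upper-quartile factors, other filters and pseudocounts, the 2 groups alone, the replicate number or label prefix as a term, and each library left out. The recovered reads gave, in edgeR over all genes, 1876 higher and 1716 lower in CCl4-fib against HSC, 1095 and 481 in NASH-fib against HSC, and 802 and 563 in NASH-fib against CCl4-fib. The code was tested on simulated data. Depth ran from 3071070 to 5634273 reads, and the floor of 3 reads covers counting error only. With 3 libraries against 3, an exact permutation test cannot go below 0.1, so none is given. Members and gene lists were chosen with earlier results of these data known. Values in every library are given for each called member and for Timp1 to Timp4, Adam10, Adam17 and Adamts13. Of the partner genes, the 2 with the largest change in each direction of each comparison and Reck, Rhbdf2, Lrp1, Vcan, Fbn1 and Col1a1 are named, and Notch1, Cdh2, Pcsk6, Bmp1, Papln, Mfap5, Fbn2, Ltbp2 and Vwf come from that rule. Notch2 and Notch3 are named outside it, after their values were seen. Promoters came from RefSeq (GRCm38.p6) and exon overlaps from GENCODE. The promoters of Timp2, Timp3 and Adamts1, the GC box and the TATA box were added after the values were seen. Gene lengths and positions are those of the file.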

Additional observations from a re-analysis of the deposited data

How the results depend on the processing

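No call of a member changed direction in any alternative, and 19 of 42 calls were made in every alternative that tested the gene. Of the 42 calls, 35 were kept in edgeR, 41 in DESeq2, 40 with upper-quartile factors, 39 without a filter, 39 with a pseudocount of 10 and 22 with the label prefix as a term. Requiring an average value over 100 left 19 members, and of these 4 rose in NASH-fib and 8 in CCl4-fib against HSCs, and 3 were lower in NASH-fib than in CCl4-fib. Requiring an average RPKM over 100 left the 3 members Timp1, Timp2 and Timp3, of which 2 rose in NASH-fib and 3 in CCl4-fib, with 0 lower in any comparison and 0 higher between the fibroblast groups by limma (0 of 3 also at an unadjusted p under 0.05). With the label prefix as a term, 4 rose and 0 fell in NASH-fib against HSCs by limma (4 lower at an unadjusted p under 0.05), and 3 were lower in NASH-fib than in CCl4-fib. Between the fibroblast groups, members higher in NASH-fib numbered 2 in edgeR, 4 in DESeq2, 2 with upper-quartile factors, 2 with a pseudocount of 10 and 2 with these groups alone, and members lower numbered 4 in edgeR. Leaving out a library gave 0 to 2 higher and 2 to 8 lower. In the comparisons with HSCs it gave 9 to 11 higher and 2 to 4 lower for NASH-fib, then 12 to 17 higher and 4 lower for CCl4-fib. The cause of these shifts was not tested, except that stricter filters tested fewer members.

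The replicate numbers did not pair the libraries: deviations of same-numbered libraries correlated between -0.473 and 0.514, and not every library correlated best with its own number. The highest correlation between groups, 0.645, was that of HSC replicate 2 and NASH-fib replicate 1, whose labels share a prefix. Other pairs that share a prefix ran from -0.171 to 0.04. With the replicate block, 3 members were lower and 1 higher in NASH-fib than in CCl4-fib, and the counts against HSCs were 14 and 4 for CCl4-fib, then 10 and 3 for NASH-fib.

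Without division by length, TIMPs held on average 31.97% of the summed member values for HSCs, 58.55% for CCl4-fib and 58.76% for NASH-fib. Of the undivided TIMP sum, Timp1 held 17.73%, Timp2 25.68% and Timp3 56.55% for CCl4-fib, and 18.01%, 33.07% and 48.9% for NASH-fib, so that Timp3, not Timp1, led. Depth limits the 12 members too low to test.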
